A study of Rattus norvegicus with 8 samples.

Results

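Small heat shock proteins and Hsp70 chaperones were examined in the kidney cortex of male and female rats. The set held 10 genes, chosen by name: the small heat shock proteins Cryab, Hspb1, Hspb2, Hspb6, Hspb7 and Hspb8, the Hsp70 proteins Hspa1b, Hspa5 and Hspa8, and the Hsp70 co-chaperone Dnajb1. A probe was assigned to a gene when its RefSeq accession mapped to that gene in the rat reference table. By this rule 8 of the 10 genes had a probe, and the 8 genes had 11 of the 30367 probes on the array. All 11 were well above background on all 8 arrays, and all 11 were among the 23425 tested probes. No probe carried an accession listed for Hspa1b or Dnajb1, so no value is given for either gene. A gene name was assigned to 17514 of the 30367 probes, and an unnamed probe may still measure either of them.

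The samples came from adult RCCHanTMWIST rats, a Wistar strain, for which the labels give no treatment. Cortical slices of 4 males and 4 females were stored overnight in RNA preservative, and each rat gave 1 Cy3-labelled sample on 1 Agilent array. The question of the study was which genes differ between the sexes in this tissue. All 8 arrays lay on 1 slide in 2 rows, with both sexes in each row. On each array 73.8% to 79.1% of the probes exceeded background clearly ("well above background" in the scanner's terms), and 0 spots were saturated. The proximal tubule markers Slc34a1, Lrp2 and Slc5a2 passed that mark on each of the 8 arrays. Of the 5 inner medulla markers, Aqp4, Crabp1 and Clu passed it on all 8 arrays, and Slc14a2 and Slc14a1 on none.

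Heat shock proteins keep other proteins folded. Small heat shock proteins form oligomers that hold unfolding proteins in a soluble state without using ATP, and Hsp70 proteins then refold them in ATP-driven cycles with J-domain co-chaperones. Many of these genes are switched on by the heat shock transcription factors, which bind inverted repeats of a short unit, the heat shock element. Hspa5, the Hsp70 of the endoplasmic reticulum, is instead known for its control through endoplasmic reticulum stress elements. In the kidney, Cryab and Hspb1 are known for their high level in the medulla, where cells face hypertonic fluid.

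Promoter windows are shown for the 5 measured genes in which one of these elements was found, so that the letters behind the counts below can be seen. The sequences are those of RefSeq on build GRCr8, read 5′ to 3′ on the strand of the gene, with 12 bases on each side of the outermost match where the 300-base window allowed it and cut at the start site. Capitals mark the match. The search used GAANNTTC and its other orientation TTCNNGAA for 2 units of the heat shock element. It used GAANNTTCNNGAA and TTCNNGAANNTTC for 3 units, which contain the 2-unit letters, and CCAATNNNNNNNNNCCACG on both strands for the endoplasmic reticulum stress element.
Hspb1, chr12:26432391-26432442, minus strand: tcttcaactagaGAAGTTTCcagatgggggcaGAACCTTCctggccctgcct
Hspb6, chr1:94934122-94934242, plus strand: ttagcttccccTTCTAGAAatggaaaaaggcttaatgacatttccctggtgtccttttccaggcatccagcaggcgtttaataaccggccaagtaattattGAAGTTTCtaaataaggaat
Hspb8, chr12:45837273-45837304, plus strand: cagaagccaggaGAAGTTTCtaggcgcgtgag
Hspa8, chr8:50080289-50080483, plus strand: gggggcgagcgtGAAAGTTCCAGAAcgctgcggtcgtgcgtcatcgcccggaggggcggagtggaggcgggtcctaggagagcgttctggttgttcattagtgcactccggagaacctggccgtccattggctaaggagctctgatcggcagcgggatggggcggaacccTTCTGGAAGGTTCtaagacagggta
Hspa5, chr3:38452961-38453003, plus strand: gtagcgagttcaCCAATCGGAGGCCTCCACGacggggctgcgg

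A promoter window, 250 bases before to 50 after the start site, was given for 7 of the 10 genes. The table held none for Cryab, Hspb2 and Hspa1b, which were therefore not searched. The 2-unit letters occurred in 5 of these 7 windows (Hspb1, Hspb6, Hspb8, Hspa8 and Dnajb1), and in 15.9% of the 33469 promoters of the table. The 3-unit letters occurred in 1 of 7, that of Hspa8, where they were present 2 times, and in 0.798% of all promoters. The stress element letters occurred in 1 of 7, that of Hspa5, at 43 to 25 bases before the start site, and in 0.0657% of all promoters. These matches are descriptions of letters in a window and not measurements of binding.

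Cryab was the 1 gene of the set that passed the test for sex-dependent expression. It encodes alpha B-crystallin, a small heat shock protein first known from the eye lens. Levels are given as log2 signals after subtraction of each array's own 75th percentile. In the 4 females (replicates 1 to 4) Cryab had levels of 4.14, 4.40, 3.66 and 3.35. In the 4 males the levels were 2.40, 2.08, 2.35 and 2.50. Every female lay above every male, and the females were spread more widely. Mean levels were 3.89 ± 0.47 (SD, n = 4) for the females and 2.33 ± 0.18 (SD, n = 4) for the males. The difference, male minus female, was a log2 fold-change of −1.55 with an SE of 0.221 and a 95% interval of −2.06 to −1.05, which is 2.94-fold higher in females (limma, adjusted p = 0.00573). The two-sided exact permutation test gave p = 0.0286, the smallest that 4 against 4 samples allow. The 2 spots of the probe differed by an SD of at most 0.102 on any array.

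Of the 11 probes of the set, 1 passed an adjusted p of 0.05, against 8.06% of the 23425 probes tested, and 4.67% of all tested probes passed with the higher level in females. The same probe also passed the added limit of a log2 fold-change of 1 in size, as did 1.89% of all probes. At an unadjusted p under 0.05 there were 4 of 11, and 25.6% of all probes. The sexes did not overlap in 2 of 11 probes, and in 18.5% of all probes. The log2 fold-change was below 0 in 10 of 11 probes, with a median of −0.22, while 58.4% of all tested probes were below 0, with a median of −0.04. Hspa8 gave 4 of the 11 probes. Counted by leading probe, 7 of 8 genes were below 0, and 55.0% of all tested leading probes. The signals came from whole slices, in which fewer cells of a type and less RNA per cell cannot be told apart.

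**Figure D1:**
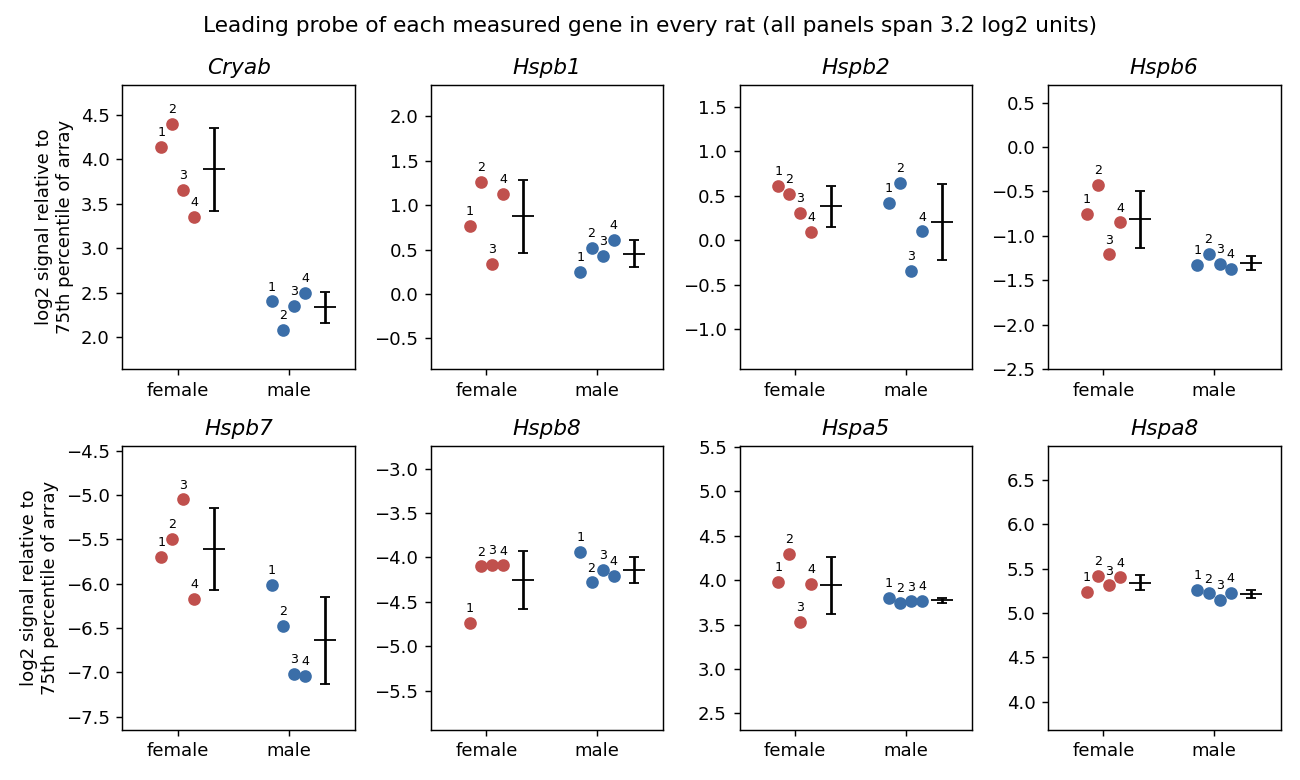
Log2 signal relative to the 75th percentile of the array (vertical axis, 3.2 log2 units in every panel) for the leading, brightest probe of each of the 8 measured genes in 4 female (red) and 4 male (blue) rats. Numbers are replicates, and bars give the mean and SD. The sexes are separated for Cryab and overlap for the other 7 genes.

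The Cryab difference was present in both rows of the slide. It was −1.05 on the log2 scale in row 1, with female replicates 3 and 4 and male replicates 1 and 4, and −2.05 in row 2, with female replicates 1 and 2 and male replicates 2 and 3. Female replicates 1 and 2 had the higher Cryab levels among the females. Whether the row changed the size of the difference was not tested.

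Hspb6 and Hspb7 had the next lowest adjusted p-values in the set, and neither passed the test. Hspb6, also called Hsp20, is known for its abundance in muscle. Its levels were −0.75, −0.43, −1.21 and −0.85 in the females and −1.33, −1.20, −1.32 and −1.37 in the males. Female replicate 3 lay just below the highest male, and the other 3 females lay above all males. The sexes differed by −0.49 on the log2 scale with an SE of 0.151 (limma, adjusted p = 0.0851, exact permutation p = 0.0571). In 19 of the 20 alternative settings Hspb6 did not pass, with an adjusted p of up to 0.165 (limma). It passed only without female replicate 3, at −0.63 with an adjusted p of 0.0288. Leaving out that rat, the female below the highest male, separates the sexes by itself. Over all settings the log2 fold-change ran from −0.63 to −0.37.

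Hspb7, a cardiovascular small heat shock protein, gave a dim signal, with a mean of 92 intensity units over the 8 arrays. Its levels were −5.70, −5.50, −5.05 and −6.17 in the females. In the males they were −6.01, −6.48, −7.02 and −7.04. Female replicate 4 lay below male replicate 1, and all other females lay above all males. The fitted difference was −1.04 on the log2 scale with an SE of 0.293 and a 95% interval of −1.71 to −0.36 (limma, adjusted p = 0.0687, exact permutation p = 0.0571). The call depended on the processing: Hspb7 passed in 4 of the 20 alternative settings, among them those without female replicate 4 (−1.22) and without male replicate 1 (−1.25), and the fold-change over all settings ran from −1.25 to −0.55. The median SD between its 2 spots was 0.220, the largest median among the 7 probes printed on 2 spots.

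Hspb1, also called Hsp27, protects the actin cytoskeleton in stressed cells. Its levels were 0.77, 1.26, 0.34 and 1.13 in the females and 0.25, 0.52, 0.43 and 0.61 in the males. Female replicates 1, 2 and 4 were above all males, and female replicate 3 was within the male range. This gave a log2 fold-change of −0.42 with an SE of 0.195 and a 95% interval of −0.87 to 0.02 (limma, adjusted p = 0.219, exact permutation p = 0.143).

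Hspb8, which works with the co-chaperone Bag3 in the disposal of damaged proteins, was the measured gene with a log2 fold-change above 0, at 0.11 (95% interval −0.26 to 0.48, limma, adjusted p = 0.721). Female replicate 1 was at −4.74 while the other females ranged from −4.10 to −4.08, and the males ranged from −4.28 to −3.94. Without female replicate 1 it was −0.056, so its direction rested on that rat.

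Hspb2 lies beside Cryab in the genome. Its levels were 0.61, 0.52, 0.31 and 0.09 in the females and 0.42, 0.65, −0.35 and 0.10 in the males. The groups overlapped almost entirely, with a log2 fold-change of −0.18 and a 95% interval of −0.67 to 0.31 (limma, adjusted p = 0.647, exact permutation p = 0.543). The low value of male replicate 3 was the mean of 2 spots that differed with an SD of 1.05, against a median spot SD of 0.0566 for this probe. Without that male the log2 fold-change was 0.0034.

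**Figure D2:**
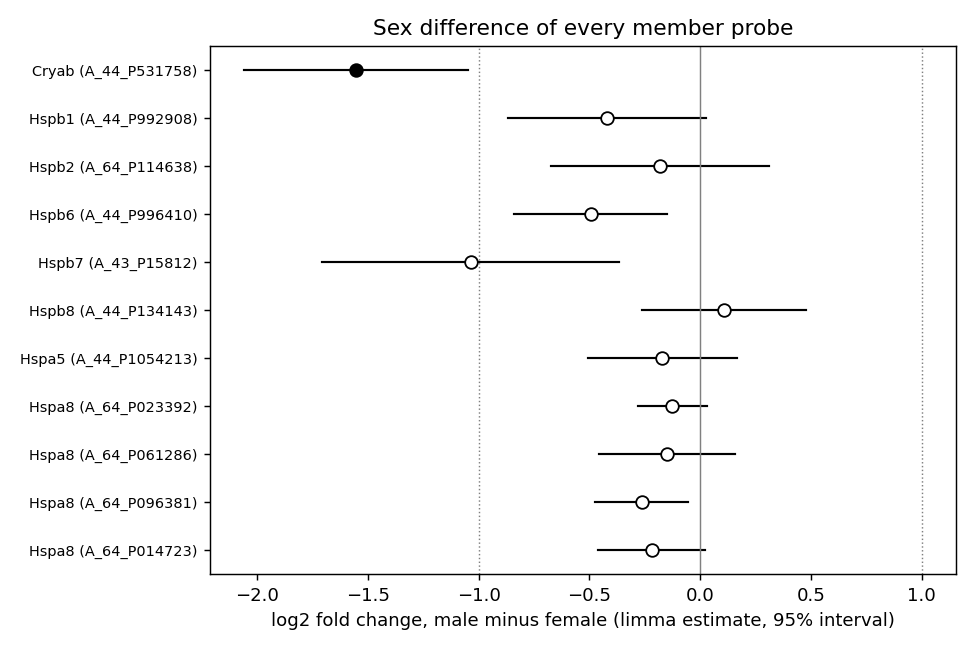
Log2 fold-change, male minus female (horizontal axis), of each of the 11 probes of the set, with the 95% interval from limma; the filled point passed an adjusted p of 0.05 and dotted lines mark log2 fold-changes of −1 and 1. The interval of Cryab lies from −2.06 to −1.05, and the intervals of Hspb6, Hspb7 and 1 probe of Hspa8 also exclude 0 before adjustment.

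The Hsp70 genes did not pass the test. Hspa5, also called BiP, had levels of 3.98, 4.30, 3.53 and 3.96 in the females and 3.80, 3.74, 3.76 and 3.77 in the males. The 4 males lay inside the range of the females. The SD was 0.319 in females and 0.0257 in males, and the log2 fold-change was −0.17 with a 95% interval of −0.51 to 0.16 (limma, adjusted p = 0.513, exact permutation p = 0.486).

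Hspa8, the constitutive Hsp70 of the cytosol, had 4 probes. The brightest, A_64_P023392, had levels of 5.24, 5.42, 5.31 and 5.40 in the females and 5.26, 5.22, 5.15 and 5.23 in the males. Female replicate 1 was below the highest male. The log2 fold-change was −0.13 with an SE of 0.0681 and a 95% interval of −0.28 to 0.03 (limma, adjusted p = 0.285, exact permutation p = 0.0571). It was 0.0041 under normexp background correction with quantile normalization.

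The other Hspa8 probes had log2 fold-changes of −0.15 (A_64_P061286), −0.22 (A_64_P014723) and −0.26 (A_64_P096381), so all 4 pointed the same way and none passed (limma, adjusted p from 0.119 to 0.538). The probe A_64_P096381 did not overlap between the sexes, with 1.80 to 2.16 in females and 1.57 to 1.73 in males. The reference table lists 33 pseudogenes named for Hspa8 and 0 for the other members. Whether transcripts of such copies reach these probes was not tested.

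Within the rows of the slide, the sign was not the same in both rows for Hspb2 (0.06 in row 1, −0.42 in row 2), Hspa5 (0.05 and −0.39) and the Hspa8 probe A_64_P061286 (0.13 and −0.42). For the other 8 probes it was the same in both rows. Female replicate 2 had the highest female value in 5 of the 8 leading probes, namely Cryab, Hspb1, Hspb6, Hspa5 and Hspa8, and in 28.8% of all tested probes.

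On the chromosome, the gene order around Cryab in the reference table is Dixdc1, C8h11orf52, Hspb2, Cryab, Cfap68, Fdxacb1 and Alg9. Cfap68, the neighbour opposite to Hspb2, encodes a protein associated with cilia and flagella. Its levels were −1.19, −1.89, −1.53 and −2.71 in the females and −4.09, −4.35, −4.20 and −4.05 in the males. Every female lay above every male. The log2 fold-change was −2.34 with an SE of 0.288, which is 5.06-fold higher in females (limma, adjusted p = 0.00307), and it was −1.95 in row 1 and −2.73 in row 2 of the slide. A second Cfap68 probe did not rise well above background anywhere.

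The differences of Cryab and its neighbours were compared through the log2 ratio of Cryab to the neighbour in each rat. The Cryab to Hspb2 ratio was 1.37 lower on the log2 scale in males, with 1.44 to 2.70 in males and 3.26 to 3.88 in females. The Cryab to Cfap68 ratio was 0.78 higher in males, with 6.43 to 6.55 in males and 5.19 to 6.29 in females. Neither ratio overlapped between the sexes, and both gave an exact permutation p of 0.0286, also after adjustment over the 2 comparisons. Thus, the sex difference of Cryab was larger than that of Hspb2 and smaller than that of Cfap68.

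Further along, C8h11orf52 had log2 fold-changes of 0.33 and 0.38 on its 2 probes (limma, adjusted p = 0.150 and 0.0528), and Fdxacb1 had −0.14 (limma, adjusted p = 0.282). Dixdc1 and Alg9 had no named probe.

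**Figure D3:**
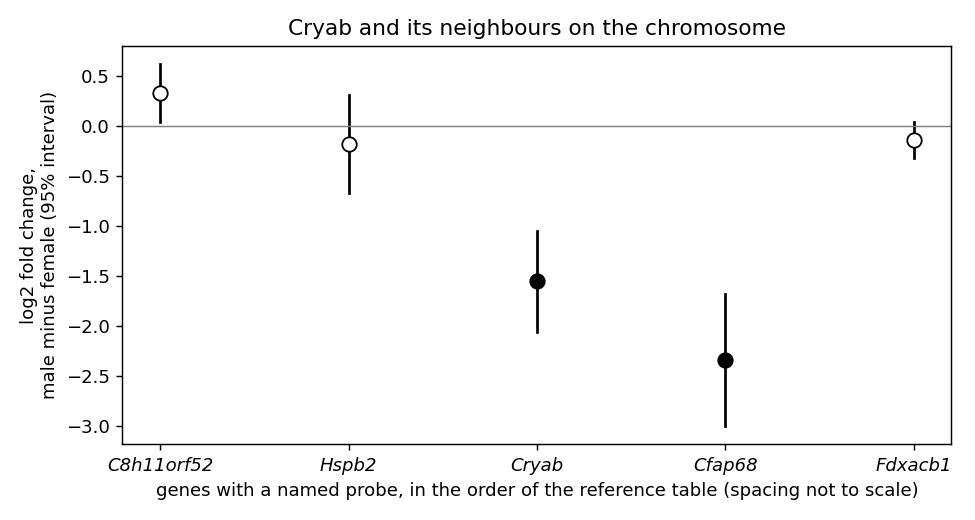
Log2 fold-change, male minus female, with the 95% interval from limma (vertical axis) for the leading probe of Cryab and of the neighbouring genes that had one, in chromosome order with no scale for distance. Filled points passed an adjusted p of 0.05. Cryab (−1.55) and Cfap68 (−2.34) lie below 0, and Hspb2, on the other side of Cryab, is at −0.18.

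The levels that most resembled those of Cryab over the 8 arrays were found by the root mean square difference of log2 levels, each centred on its own mean, among 11131 leading probes well above background on all arrays. The closest were Oat, the mitochondrial ornithine aminotransferase (0.116), Spink8, a Kazal-type peptidase inhibitor (0.153), Cbr1, a carbonyl reductase (0.156), Pld1, a phospholipase D (0.167), and Gng13, a G protein gamma subunit (0.180). Oat had levels of 5.70, 5.80, 5.30 and 4.96 in the females and 4.04, 3.90, 3.99 and 3.98 in the males. In both Oat and Cryab, female replicate 2 was the highest and female replicate 4 the lowest of the females, and male replicate 2 was the lowest male. The log2 fold-changes of the 5 genes ran from −1.65 to −1.35. They were picked for their likeness to Cryab, so these values are a description.

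**Figure D4:**
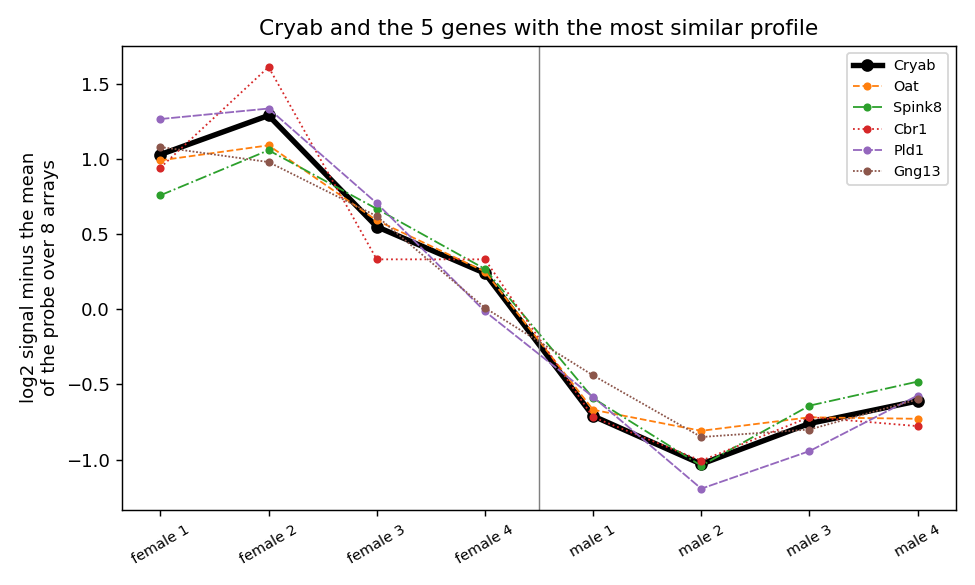
Log2 signal minus the mean of the probe over 8 arrays (vertical axis) in each rat (horizontal axis, 4 females then 4 males) for Cryab and the 5 genes closest to it. All 6 lines are higher in each female than in each male, and root mean square differences from Cryab ran from 0.116 to 0.180.

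Among 43 genes listed as cytosolic partners of these chaperones, 39 had a probe, and 5 passed the test, against 9.20% of all tested leading probes. All 5 had the higher level in males (3.39% of all tested probes, leading or not, passed in that direction). Of the 11825 tested leading probes, 1088 passed, 577 of them with the higher level in females and the rest in males. The 5 were Hspbap1, which binds Hspb1, the heat shock transcription factor Hsf2, and the J-domain co-chaperones Dnajc5, Dnajb5 and Dnaja4. None reached a log2 fold-change of 1, and the median over the 39 was 0.05, with 24 above 0. At an unadjusted p under 0.05 there were 11 of 39, close to the 26.0% of the 11825 leading probes of all genes.

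Hspbap1 had levels of 1.29, 1.63, 1.09 and 1.43 in the females and 1.94, 2.06, 2.08 and 2.16 in the males. Each male lay above all females. The log2 fold-change was 0.70 with an SE of 0.117 (limma, adjusted p = 0.0109), and Hspbap1 passed in all 20 alternative settings, from 0.61 to 0.79.

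Dnaja4 had levels of −2.29, −1.52, −2.07 and −1.98 in the females and −1.10, −1.19, −1.33 and −1.31 in the males. The sexes did not overlap, and the log2 fold-change was 0.73 with an SE of 0.154 (limma, adjusted p = 0.0263). The call was lost in 9 of the 20 settings, in which the adjusted p was between 0.0527 and 0.0824.

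The leading Hsf2 probe had levels of −0.86, −1.03, −0.95 and −0.87 in the females and −0.43, −0.61, −0.52 and −0.61 in the males. Hsf2 was higher in males on both of its probes, by 0.39 (SE 0.0738, limma, adjusted p = 0.0190) and 0.33 (SE 0.0606, adjusted p = 0.0156). For Dnajc5 the log2 fold-change was 0.37 (SE 0.0629, limma, adjusted p = 0.0114), and for Dnajb5 it was 0.48 (SE 0.100, adjusted p = 0.0257). In all 5 genes the sexes did not overlap, as in 2320 of the 11825 tested leading probes. The sign was the same in both rows of the slide. The 5 were chosen for passing in these same arrays, so both are descriptions. Of the 20 settings, the call held in 18 for Dnajc5, 16 for Hsf2 and 14 for Dnajb5. With the slide column as a block, Hspbap1 passed and the other 4 did not (adjusted p from 0.0590 to 0.0865).

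Hsf1, the main heat shock transcription factor, had a log2 fold-change of 0.0019 with a 95% interval of −0.20 to 0.21 (limma, adjusted p = 0.992). Bag3, the partner of Hspb8, was at 0.44 (SE 0.116, adjusted p = 0.0570), and each male lay above all females. The Hsp90 genes Hsp90aa1 and Hsp90ab1 were at 0.20 and −0.03 on their leading probes, and Hsph1, a nucleotide exchange factor for Hsp70, was at 0.14. None of these passed. The small heat shock proteins outside the set, Hspb3 and Hspb9, were at 0.30 and 0.0054 (limma, adjusted p = 0.332 and 0.989).

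**Figure D5:**
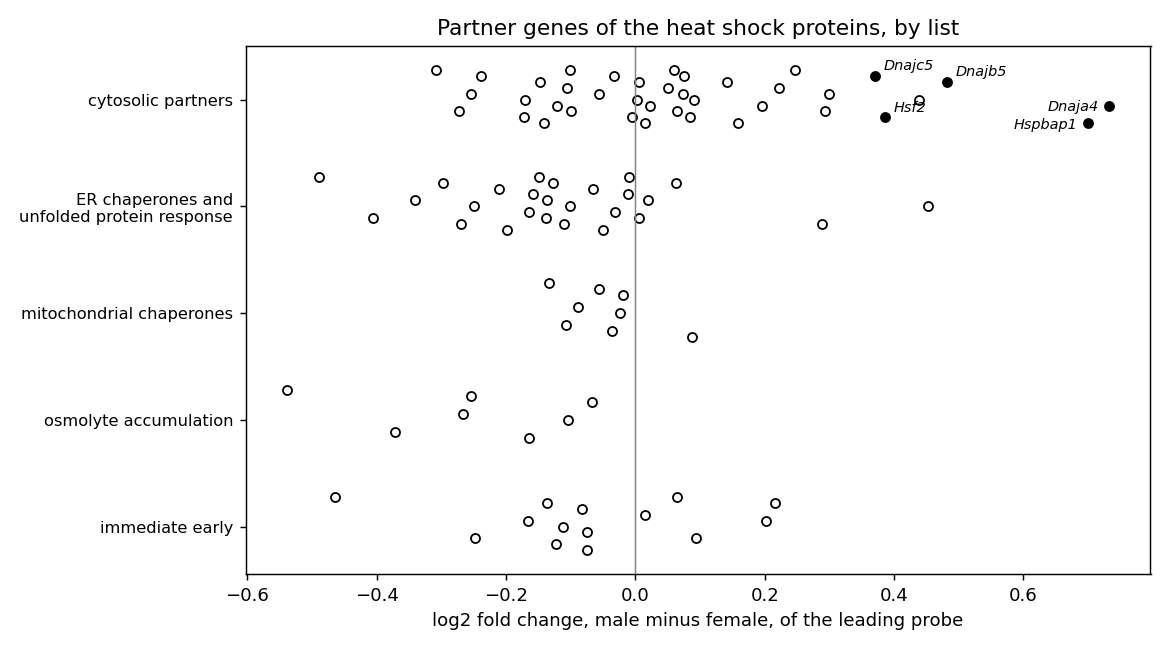
Log2 fold-change, male minus female, of the leading probe (horizontal axis) for genes of 5 partner lists, with 1 point per gene and vertical scatter for legibility. Filled, named points passed an adjusted p of 0.05. The 5 filled points all lie above 0 among the cytosolic partners, between 0.37 and 0.73.

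In the lists for the endoplasmic reticulum and the mitochondria, no gene passed in limma. Of 31 genes of endoplasmic reticulum chaperones and the unfolded protein response, 26 had a probe, 0 passed and 7 had an unadjusted p under 0.05, again close to the 26.0% of all leading probes. The median log2 fold-change was −0.13, with 21 of 26 below 0 (55.0% of all leading probes), and Hsp90b1, the Hsp90 of this compartment, was at −0.21 (adjusted p = 0.308). Of 9 mitochondrial chaperones, 8 had a probe and 0 passed, with 0 at an unadjusted p under 0.05. Their folding chamber subunits Hspd1 and Hspe1 were at −0.02 (95% interval −0.16 to 0.12) and −0.11 (−0.27 to 0.06).

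The genes of osmolyte accumulation, through which kidney cells adapt to hypertonic fluid, had a probe for 7 of 7, and 0 passed in limma, with 3 at an unadjusted p under 0.05 (26.0% of all leading probes). All 7 were below 0 (55.0% of all leading probes), with a median of −0.25. Hspa4l, among those with an unadjusted p under 0.05, was also counted among the cytosolic partners. The osmolyte factor Nfat5 was at −0.37 on the brighter probe (95% interval −0.98 to 0.24) and at 0.98 on a dim one (limma, adjusted p = 0.427 and 0.167). The summed linear level, in units of the 75th percentile of the array, was 4.53 to 5.34 in females and 3.43 to 4.44 in males. Such a sum weighs bright genes most, and the brightest of the list was Slc5a3 (−0.54, limma, adjusted p = 0.0595). Of the immediate early genes, which respond within minutes to handling, 14 of 15 with a probe were tested, 0 passed and 0 had an unadjusted p under 0.05.

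Markers of other cell types moved with sex in some lists. All 4 thick ascending limb markers with a probe had log2 fold-changes below 0, as did 55.0% of all tested leading probes. None of the 4 overlapped between the sexes, as in 2320 of the 11825 tested leading probes. Cldn16 (−0.62) and Egf (−0.38) passed, 2 of 4 against 9.20% of all leading probes (4.88% with the higher level in females), while Kcnj1 (−0.34) and Umod (−0.26) had an unadjusted p under 0.05 only. Their summed level was 75.5 to 85.5 in females and 63.1 to 69.4 in males. Of the inner medulla markers, 2 of 3 tested passed with the higher level in females (4.88% of all leading probes). They were the water channel Aqp4 (−1.19) and Crabp1 (−0.51). Clu, the brightest marker in the list sum, was at 0.01, and the sum was 1.93 to 2.33 in females and 1.41 to 2.10 in males. Another Aqp4 probe was at −1.13 (limma, adjusted p = 0.0396), and a further one was at −0.26, with overlapping sexes (adjusted p = 0.296). These genes were named after their values were seen, and the adjusted p of the leading probes that passed lay between 0.0235 and 0.0301 (limma). Of the 20 settings, the call held in 12 for Cldn16, 8 for Egf, 17 for Aqp4 and 10 for Crabp1.

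Podxl, a podocyte gene, was higher in females by 0.27 on the log2 scale (1 of 5 markers, adjusted p = 0.0354 in limma). Of all leading probes, 9.20% passed. The Podxl call held in 10 of 20 settings, and the summed podocyte level was 12.3 to 13.0 in females and 10.5 to 11.0 in males. Cubn was the 1 proximal tubule marker of 8 that passed, and it was higher in females, with a log2 fold-change of −0.59. The proximal tubule sum was 145.9 to 166.2 in females and 144.9 to 152.9 in males. No marker passed among 7 of the collecting duct, 9 of smooth muscle, 6 of skeletal muscle, 5 of endothelium, 6 of adipocytes and 2 of the distal convoluted tubule (limma). The collecting duct sum was 49.8 to 63.8 in females and 41.8 to 54.1 in males. Of its 7 markers, 6 were below 0 (55.0% of all leading probes). An unadjusted p under 0.05 was found for 3 of 7 (26.0% of all leading probes). The smooth muscle sum was 5.19 to 5.89 in females and 4.90 to 5.79 in males. The adipocyte sum was 0.391 to 1.06 in females, highest in replicate 1, and 0.379 to 0.535 in males. The skeletal muscle sum was 0.401 to 0.589 in females and 0.453 to 0.603 in males. Of the 9 skeletal muscle markers with a probe, 5 were well above background on all 8 arrays, and Myh4, Myh2 and Pvalb were so on none. Sums for endothelium were 12.1 to 13.4 in females and 11.6 to 12.8 in males, and for the distal convoluted tubule 13.4 to 21.1 and 13.3 to 17.5. The part of these cell types in the Cryab difference was not tested.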

How the data were processed

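One-colour Agilent arrays were hybridized with RNA of kidney cortex from 4 males and 4 females, 8 arrays in all. The authors deposited for each array the intensity of every spot from Feature Extraction 10.7.3.1, background-subtracted and detrended, without normalization between arrays. Deposited beside them were log2 values with the same distribution on every array, which served as an alternative. The submitters' processing notes name limma 3.8.2.

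Outlier spots were left out, log2 was taken with no pseudocount, each array's 75th percentile over its non-control spots was subtracted, and replicate spots were averaged. Probes that were well above background on 4 or more arrays were fitted with limma 3.58.1 (R 4.3.3, data.table version 1.17.8; figures with Python 3.11.15 and matplotlib 3.10.9) as male minus female, with Benjamini-Hochberg adjustment over 23425 probes. A probe was called at an adjusted p of 0.05, and a further limit was a log2 fold-change of 1 in size. The fit was tested on simulated data with independent noise, counting only calls that also passed this further limit. Calls with smaller fold-changes were not covered by that simulation. Exact permutation tests were two-sided, over 70 assignments. The limma p-values set the sex difference against the spread among rats of a sex, with a variance drawn partly from all tested probes. Each rat gave 1 array, so this spread also holds that of slices and arrays. The number of rats limits the precision.

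The plan was to name all members, genes of each partner list that passed (at most 6) and 10 listed regulators and chaperones. It also held up to 3 genes per marker list, the neighbours of Cryab and the 5 genes most like it. Beyond the plan, Hspb3, Hspb9, Hspa4l and Slc5a3 were named. More than 3 markers were named for the thick ascending limb, inner medulla and proximal tubule. Where a gene had several probes, the brightest over the 8 arrays led. Likeness to Hspa1b could not be computed, since no probe was assigned to it. Members and lists were chosen with earlier results of these data known. Gene names came from RefSeq accessions. Alternatives were other normalizations, background corrections and filters, a trend with a robust prior, array weights, blocks for replicate number, slide row and slide column (the last chosen after seeing the data), and leaving out each array.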

Additional observations from a re-analysis of the deposited data

Results flagged for a closer look

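The values of each of the 11 probes were examined for a single rat apart from the others of its sex by Dixon's test in 22 groups of 4, and 2 were found, where chance gives about 1.1. For Hspb8, female replicate 1 was at −4.74 and the other 3 females were between −4.10 and −4.08. For the Hspa8 probe A_64_P014723, female replicate 2 was at 1.15 and the other 3 females were between 0.824 and 0.862.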

How the results depend on the processing

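The log2 fold-change of Cryab passed in all 20 alternative settings, from −1.73 to −1.38 (adjusted p from 0.00217 to 0.0372), and that of Cfap68 did so from −2.63 to −2.13. With the replicate number as a block, Cryab had an adjusted p of 0.0372, 1030 probes passed in place of 1889, and 2 cytosolic partners passed in place of 5, Hspbap1 of the 5 and Bag3, which was not among them. Correlations of deviations between a male and a female were 0.125, 0.0427, −0.00794 and 0.117 for equal replicate numbers. For unequal numbers they ran from −0.194 to 0.117. Whether the replicate numbers pair the rats cannot be told from these few values. With the slide column as a block, 929 probes and 1 partner passed, and without a filter on dim probes 1194 probes passed. Leaving out 1 array gave 1012 to 1544 probes, 3 to 5 partners, 0 to 1 genes of the endoplasmic reticulum list, 0 to 1 of the osmolyte list, and 1 to 2 members by either limit.

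The probes of the set that passed, and their genes, numbered 2 under normexp correction, through Hspb7 (−0.66), and under the intensity trend with a robust prior, through Hspb7 again (−1.04), where 2 members also passed the fold limit. The trend gave 8 partners, 1 gene of the endoplasmic reticulum list and 2 of the osmolyte list. Normexp correction gave 1 osmolyte gene, and with quantile normalization it gave 1 osmolyte gene and 1 gene of the endoplasmic reticulum list. Without 1 array, Hspb7 ranged from −1.25 to −0.85 and Hspb6 from −0.63 to −0.37. The direction reversed for Hspb8 without female replicate 1 (−0.056; range −0.056 to 0.17), for Hspb2 without male replicate 3 (0.0034; range −0.33 to 0.0034) and for Hspa8 under normexp correction with quantile normalization (0.0041). The cause of these changes was not tested. Of the called probes, 42.1% were higher in males, and 54.5% under quantile normalization. Dim probes, such as that of Hspb7, are limited by their signal over background.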
